A study of Mus musculus with 4 samples.

Results

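The culture grown for 3 days under Th17 conditions was compared gene by gene with the culture grown for 3 days under Treg conditions. Each culture was represented by 1 library, so a gene entered the comparison when it had at least 10 counts in 1 of the 2 libraries. This rule kept 13346 of the 34745 genes in the deposited table. Both cultures were CD4+ T cells from the spleen of wild-type C57BL/6 mice, and RNA was sequenced from bulk cells. The labels give neither the cytokines and antibodies of the Th17 and Treg conditions nor the sex, age or number of the mice. The study holds 2 more libraries, from naive CD4+ T cells of the spleen, not cultured, and from Th0 cells stimulated through CD3 and CD28 for 3 days. Their values are given beside the comparison to place the levels of the cultured cells. No group carried a mutation or a transgene. With 1 library a group, no difference below has a replicate check, no p-value was computed, and the intervals (95%) reflect counting error alone.

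Th17 and Treg cells are helper T cell lineages that can arise from the same naive CD4+ precursor. TGF-beta takes part in the generation of both in culture: together with IL-6 it induces the IL-17 cytokines, and with IL-2 it induces Foxp3. The programmes of the lineages are antagonistic, and cells with traits of both lineages are a known feature of such cultures. HIF-1, the oxygen-sensing factor, and a glycolytic metabolism have been tied to the Th17 side of this balance, and oxidation of lipids to the Treg side.

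The Th17 library held 12414372 counts and the Treg library 10256627. At least 10 counts were found for 13043 genes in Th17 and 12799 in Treg. Levels are given as CPM, read counts scaled to a common library size with TMM normalization factors, and 1 count was worth 0.0762 CPM in Th17 and 0.0902 CPM in Treg. Mitochondrial genes took 3.49% of the Th17 counts and 3.69% of the Treg counts, and ribosomal protein genes 3.57% and 3.62%. The T cell identity of both libraries was read from 10 markers, among them the CD3 chains, Cd4 and Lck. Their summed level was 4462 CPM in Th17 and 4848 CPM in Treg, none was at 0 in either library, and none met the size rule described next. The naive library held many transcripts of other cells, with macrophage and monocyte markers summing to 4703 CPM against 42.1 in Th17 and 58.8 in Treg, so its levels serve as a description only. Cd4 itself had 1001 CPM in Th17 and 1199 CPM in Treg.

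A gene was called higher or lower in Th17 when the log2 ratio of CPM plus 1 was at least 2-fold and the counting interval of the scaled count ratio excluded equality. By this rule 255 genes were higher in Th17 (1.91% of those tested) and 165 were lower (1.24%), while 12926 were called in neither direction. The median log2 ratio of all genes tested was 0.00, with quartiles at -0.20 and 0.19, and 1 gene in 20 lay below -0.62 and as many above 0.67. A ratio within 1.5-fold was found for 11738 genes (88.0%). Ratios of at least 4-fold were reached by 26 of the higher and 12 of the lower genes. Only Scrt1 reached 10-fold on this scale. The share of calls that were higher was 60.7%. Folds are given below as ratios of CPM without the added 1, each with its counting interval.

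**Figure D1:**
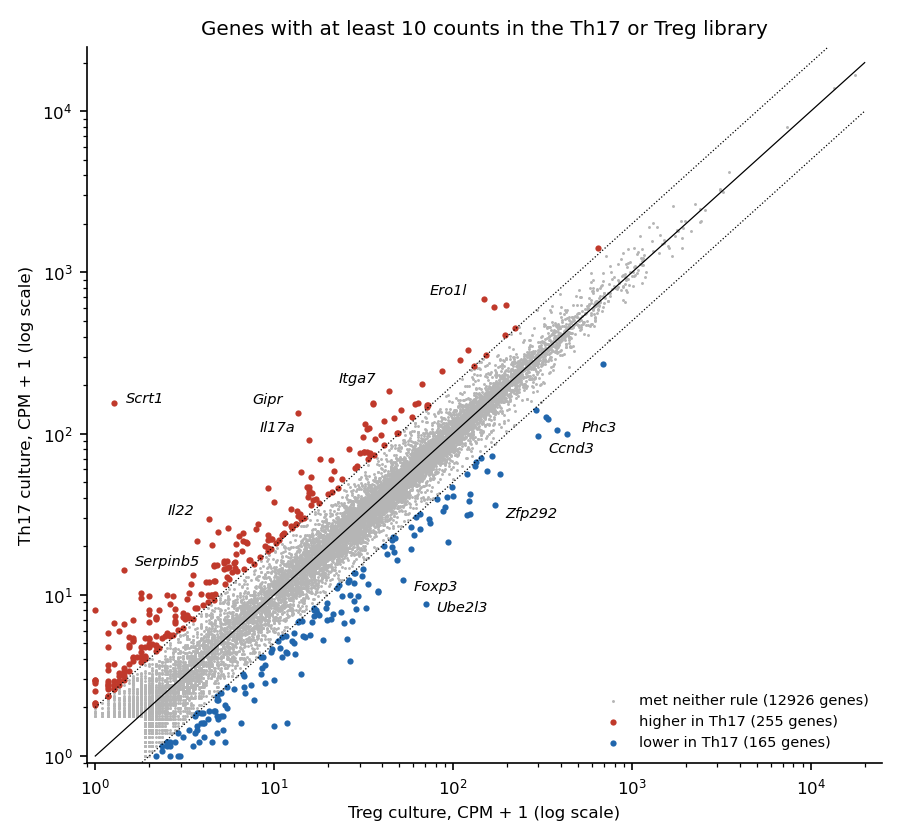
Level of each of the 13346 genes in the Treg culture (x axis, CPM plus 1, log scale) and in the Th17 culture (y axis, same unit). The solid line marks equal levels and the dotted lines a 2-fold difference. The 255 genes called higher in Th17 are red, the 165 called lower are blue, and Scrt1 stands alone at 155 CPM in Th17 against 0.271 CPM in Treg.

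Of 11 tested cytokine genes of the Th17 lineage 6 were called higher, 1 lower and 4 neither. Over all genes tested 1.91% were called higher and 1.24% lower. The cytokine genes had a median log2 ratio of 1.53 against 0.00 over all genes tested. The median was 0.51 over 13 members with no filter on counts and 0.88 with 5 CPM added in place of 1. Il17a encodes the cytokine that gives the lineage its name. It had 0.245 CPM in naive, 0 counts in Th0, 90.4 CPM in Th17 and 14.7 CPM in Treg, 6.15-fold higher in Th17 (interval 5.22 to 7.29). Il17f, its neighbour on chromosome 1 and partner in the IL-17A/F heterodimer, had 0.245, 0.458, 118 and 39.9 CPM in the same order. Its difference was 2.95-fold (2.65 to 3.29). Both genes were therefore near the floor in naive and Th0 and present in each of the polarised cultures. Expressed per length, as the authors' FPKM, Il17a had 81.6 in Th17 and 13.6 in Treg, and Il17f had 41.9 and 14.5. By this measure the Il17a level exceeded that of Il17f in Th17, while in Treg the values of the pair differed by less than the counting error of Il17a.

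Il22, which encodes a cytokine acting on epithelial cells, had 28.3 CPM in Th17 and 3.34 CPM in Treg, 8.50-fold higher (6.05 to 12.3). A near-identical copy, Iltifb, can share its reads. The sum of both stood at 32.2 and 3.88 CPM and was also called higher. Il21, a cytokine that acts back on T cells through STAT3, had 105 CPM in Th17 and 32.01 CPM in Treg (3.29-fold, 2.93 to 3.71). The antisense gene Gm12534 overlaps it and was called higher too, and without strand its reads cannot be told from those of Il21. Il24, a member of the IL-10 family, had 202 and 66.4 CPM (3.05-fold, 2.81 to 3.31), and was at 0 counts in naive and 5.84 CPM in Th0. Csf2, which encodes GM-CSF, was low in both cultures at 8.38 and 2.25 CPM, and its fold of 3.72 had a wide interval of 2.39 to 5.99. The lower member was Il2, the T cell growth factor, with 21 counts in Th17 and 55 in Treg (3.10-fold lower, 1.84 to 5.40). Lif, Tnf, Osm and Il10 were not called, with log2 ratios from 0.25 for Osm to 0.51 for Il10. Ccl20, Il9 and Il23a had under 10 counts in both libraries and were not tested. With 5 CPM added in place of 1, Csf2 and Il2 did not reach 2-fold.

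The sequences before the starts of Il17a, Il17f and Foxp3 are shown because these genes define the 2 cultures. Each window runs from 250 bases before to 50 bases after a RefSeq transcription start on GRCm38.p6. The windows are chr1:20730655-20730954 on the plus strand for Il17a, chr1:20784221-20784520 on the minus strand for Il17f, and chrX:7580233-7580532 on the plus strand for Foxp3, which is the one of its 2 windows that holds a match. Capitals mark AGGTCA or its reverse complement, a core to which many nuclear receptors bind.
Il17a: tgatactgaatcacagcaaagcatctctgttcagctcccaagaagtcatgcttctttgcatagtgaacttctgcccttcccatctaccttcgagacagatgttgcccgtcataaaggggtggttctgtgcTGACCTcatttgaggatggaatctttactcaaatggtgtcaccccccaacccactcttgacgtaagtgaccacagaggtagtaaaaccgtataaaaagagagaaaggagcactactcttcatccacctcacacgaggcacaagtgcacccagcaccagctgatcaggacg
Il17f: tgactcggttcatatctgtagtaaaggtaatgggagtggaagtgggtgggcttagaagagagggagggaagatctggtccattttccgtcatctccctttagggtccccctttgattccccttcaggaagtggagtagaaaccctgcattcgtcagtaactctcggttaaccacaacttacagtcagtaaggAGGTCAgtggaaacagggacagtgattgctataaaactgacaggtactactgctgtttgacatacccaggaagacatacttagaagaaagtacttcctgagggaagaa
Foxp3: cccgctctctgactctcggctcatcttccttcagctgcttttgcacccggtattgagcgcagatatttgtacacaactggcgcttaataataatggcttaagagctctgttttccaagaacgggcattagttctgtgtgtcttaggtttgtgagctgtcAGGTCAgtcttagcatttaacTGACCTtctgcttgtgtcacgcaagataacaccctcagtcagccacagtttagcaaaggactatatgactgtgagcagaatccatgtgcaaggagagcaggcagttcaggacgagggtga
The core began at position -120 from the start in Il17a, -58 in Il17f, and -91 and -70 in Foxp3. It was thus found before the start of a Treg gene as well as of the Th17 genes. Among the Th17 cytokine genes 4 of 10 with a window held the core, and 2 of the 5 that were called higher. Over all 27025 genes with a window the share was 18.1%. A match of 6 letters is a description of the sequence and shows no binding.

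Of the 14 transcription factors tied to the Th17 lineage, 2 were higher in Th17, beside 1.91% called higher over all genes. None was lower and 12 were called in neither direction, with a median log2 ratio of 0.51. Batf, an AP-1 family factor required for Th17 differentiation, was among those called higher, with 68.4 CPM in Th17 and 32.6 CPM in Treg (2.10-fold, 1.86 to 2.38). Sox5 was close to the limit at 9.91 and 4.60 CPM, a log2 ratio of 0.96. Irf4, the partner of BATF, had 995 and 685 CPM and Fosl2 985 and 591 CPM, neither being called. Stat3, which carries the IL-6 signal, differed by 1.06-fold (1.02 to 1.09) and Rora, a nuclear receptor of Th17 cells, by 1.12-fold (1.05 to 1.19). Ahr, the aryl hydrocarbon receptor, had 97.8 CPM in Th17 and 127 CPM in Treg, a ratio that was not called. In all, 11 of the 14 ratios lay above 0. With 5 CPM added in place of 1, Batf did not reach 2-fold.

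The receptor and surface genes of Th17 cells did not follow the cytokines. Of 12 tested members none was higher in Th17 and 2 were lower, beside 1.24% called lower over all genes. The median log2 ratio was -0.03. Il23r, the receptor chain for IL-23, had 19 counts in Th17 and 8 in Treg, and its interval of 0.839 to 5.30 included equality, so a difference was not detectable at this depth. Ccr6, the chemokine receptor of Th17 cells, had 0 counts in Th0, 25.99 CPM in Th17 and 33.4 CPM in Treg. Il1r1, the receptor for IL-1, had 17.5 and 9.11 CPM, a log2 ratio of 0.87 that missed the 2-fold limit. The 2 lower members were Tmem176a, at 3.12 and 7.39 CPM, and Cd5l, at 3.35 and 10.7 CPM. Neither reached 2-fold with 5 CPM added in place of 1, and Tmem176a shares its locus with the antisense gene Tmem176b, which was not called. Cd5l is also made by macrophages. In naive cells it had 166 CPM, and 11 of 11 tested macrophage and monocyte markers had ratios below 0 in this comparison, with 2 called lower. Their summed level was 42.1 CPM in Th17 and 58.8 CPM in Treg. Their part in the Cd5l value was not tested.

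Among the transcription factors of regulatory T cells, 2 of 13 tested members were lower in Th17 and none was higher, beside 1.24% called lower over all genes, with a median log2 ratio of -0.09. Foxp3, the factor that specifies the Treg lineage, lies on chromosome X (7579676 to 7595243, GRCm38). It had 129 CPM in naive, 1.37 CPM in Th0, 11.3 CPM in Th17 and 51.5 CPM in Treg, 4.57-fold lower in Th17 (3.80 to 5.51). The Th17 library thus carried more Foxp3 than the Th0 library, and the naive library more than the Treg library. In bulk RNA, fewer cells that make a transcript and less transcript per cell cannot be told apart, which applies to Foxp3 as to every gene below. The noncoding gene Flicr can share reads with Foxp3. The sum of both had 14.1 CPM in Th17, 55.4 CPM in Treg and was also called lower. Nr4a3, an orphan nuclear receptor induced by T cell receptor signals, had 216 CPM in Th0, 55.2 CPM in Th17 and 182 CPM in Treg (3.29-fold lower, 3.02 to 3.59). Ikzf2, which encodes Helios, had 39.5 and 52.1 CPM, and Gata3 33.8 and 58.7 CPM, neither being called.

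Of 21 surface and effector genes of Treg cells 4 were lower in Th17 and none was higher, beside 1.24% called lower over all genes (median log2 ratio -0.24). Nrp1, neuropilin-1, had 3.43 CPM in Th17 and 10.6 CPM in Treg (3.10-fold lower, 2.18 to 4.48). Itgae encodes CD103, an integrin chain that TGF-beta induces. It had 6.48 and 16.8 CPM (2.59-fold lower, 1.99 to 3.39). Penk, the enkephalin precursor, had 23 counts in Th17 and 71 in Treg (3.65-fold lower, 2.25 to 6.13). Socs2, a STAT5 target, had 30.5 and 64.2 CPM (2.11-fold lower, 1.86 to 2.39). When its near-identical copies were summed with it, the log2 ratio was -0.97 and missed the limit. The best known effector genes of the list were not called. Il2ra, the high-affinity IL-2 receptor chain, had 1558 CPM in Th17 and 1287 CPM in Treg. Ctla4, an inhibitory receptor, had 794 and 665 CPM, and Tnfrsf18, which encodes GITR, 445 and 383 CPM. Lrrc32, which encodes the TGF-beta anchor GARP, had 90.6 and 51.6 CPM, a log2 ratio of 0.80. With 5 CPM added in place of 1, none of the 4 lower genes of this list reached 2-fold.

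**Figure D2:**
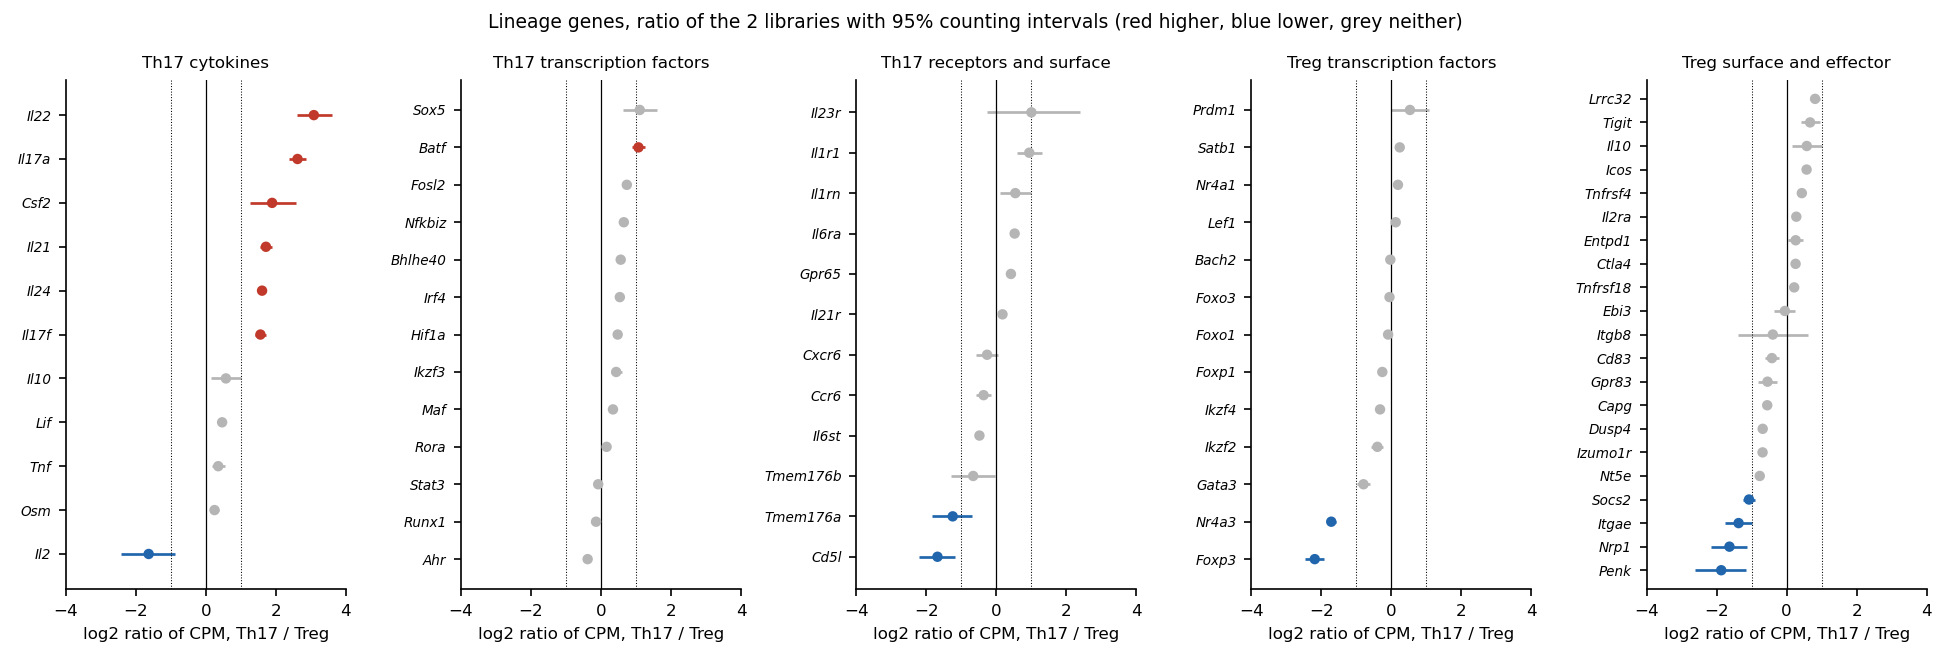
Log2 ratio of CPM, Th17 over Treg, for tested genes of the 5 lineage lists, without an added count. Points are the ratios, bars their 95% counting intervals, the dotted lines mark 2-fold, and red, blue and grey stand for higher, lower and neither. Il22 and Il17a lead the cytokines at 8.50-fold and 6.15-fold, and Foxp3 is the lowest transcription factor at 4.57-fold lower in Th17.

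Few genes of the other helper lineages were called, beside 1.91% called higher and 1.24% called lower over all genes, and a count of 1 on lists of this length is no result about a lineage. None of 15 tested Th1 genes was higher in Th17 and 1 was lower: Fasl, the ligand of the death receptor Fas, with 24.5 CPM in Th17 and 64.1 CPM in Treg (2.61-fold lower, 2.29 to 2.99). Of 9 tested Th2 genes 1 was lower. This was Ccr8, a chemokine receptor of Th2 cells and of tissue Treg cells, with 7.10 CPM in naive, 18.9 CPM in Th0, 37.3 CPM in Th17 and 121 CPM in Treg (3.25-fold lower, 2.93 to 3.61). Of 11 follicular helper genes 1 was higher, the shared cytokine Il21. Among 15 tested chemokines and receptors 2 were higher and 1, Ccr8, was lower. Ccr2, a receptor for inflammatory chemokines, was among the higher genes, with 16.8 and 5.14 CPM (3.28-fold, 2.44 to 4.46), and was not called with the authors' FPKM. Among 22 tested integrin and laminin genes 2 were higher and 2 lower. Itga7, a laminin-binding integrin chain, had 0.687 CPM in Th0, 183 CPM in Th17 and 42.8 CPM in Treg (4.26-fold, 3.86 to 4.72). Itga3, another laminin-binding chain, had 152 and 59.97 CPM (2.54-fold, 2.33 to 2.78). The lower members were Itgae and Itgax, and neither reached 2-fold with 5 CPM added in place of 1. Itga4 lay at the limit with a log2 ratio of -0.996, and was called lower under 2 of 5 scalings.

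**Figure D3:**
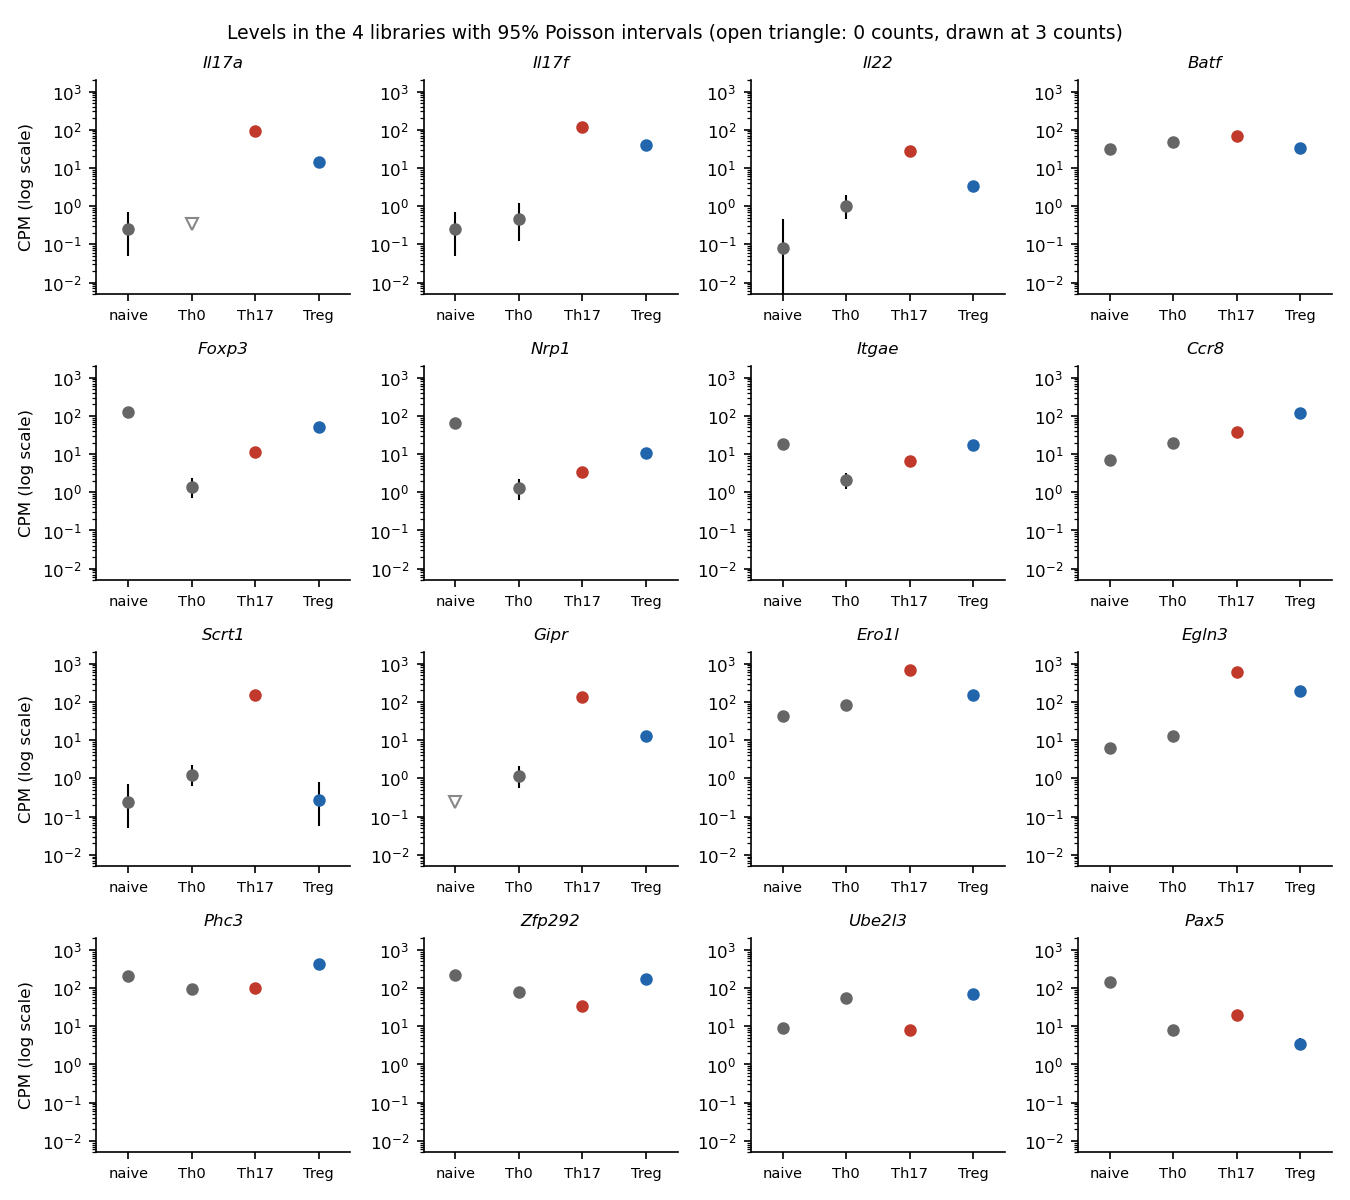
Level in each of the 4 libraries (CPM, log scale) for 16 genes the text describes, with 95% Poisson intervals of the single level. An open triangle marks 0 counts and is drawn at 3 counts. Il17a and Il17f are above naive and Th0 in both polarised cultures, while Scrt1 is above 1.26 CPM in Th17 alone.

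Of 29 tested genes of the response to low oxygen 11 were higher in Th17, against 1.91% called higher over all genes. None was lower and 18 were called in neither direction. The list holds regulators of HIF, such as Hif1an and Vhl, beside genes induced by low oxygen. The median log2 ratio was 0.63, and 26 of the 29 ratios lay above 0. Ero1l, which encodes the oxidase that drives disulphide formation in the endoplasmic reticulum, lies on chromosome 14 (45283092 to 45318572). Its level was 41.6 CPM in naive, 81.7 CPM in Th0, 679 CPM in Th17 and 148 CPM in Treg, 4.58-fold higher in Th17 (4.35 to 4.84). Egln3 encodes the prolyl hydroxylase PHD3, which marks HIF subunits for degradation and is itself a HIF target. Its levels were 6.21, 13.2, 624 and 198 CPM in the same order, 3.16-fold higher in Th17 (3.01 to 3.31). In both genes the Th17 library was highest and the Treg library also stood above naive and Th0.

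The other called members of the hypoxia list, higher in Th17 by the rule that chose them, had lower levels. Adm, the vasodilator adrenomedullin, had 118 counts in Th17 and 17 in Treg (5.87-fold, 3.51 to 10.4). Ak4, a mitochondrial adenylate kinase, had 52.7 and 15.1 CPM (3.50-fold, 2.95 to 4.17). P4ha2, a collagen prolyl hydroxylase, had 67.4 and 19.7 CPM (3.43-fold, 2.95 to 3.99), and Hilpda, a lipid droplet protein, 107 and 32.7 CPM (3.26-fold, 2.91 to 3.67). Bnip3, a mitophagy receptor, was 2.72-fold higher at 124 CPM, and Ankrd37 3.58-fold higher at 15.2 CPM. Vldlr, a lipoprotein receptor, was 2.38-fold higher (2.003 to 2.84), and Vegfa, the angiogenic factor, 2.11-fold (1.94 to 2.29). Ndrg1 lay at the limit, with a fold of 2.01 (1.89 to 2.14), 263 CPM in Th17, 131 CPM in Treg and 189.9 CPM in Th0, and was not called with 5 CPM added in place of 1. P4ha1 lay just below it, at 1.98-fold. Hif1an, the asparaginyl hydroxylase that restrains HIF, differed by 1.02-fold (0.939 to 1.11), and Hif1a, the oxygen-regulated HIF subunit, had 1917 CPM in Th17 and 1378 CPM in Treg without being called.

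The genes of glycolysis leaned the same way, but few passed 2-fold. Of 24 tested members 3 were higher in Th17, beside 1.91% over all genes, none was lower and 21 were called in neither direction. The median log2 ratio was 0.61, with 21 ratios above 0. The 3 called genes act at the entry of glucose. Slc2a3 encodes the glucose transporter GLUT3 and had 98.98 CPM in naive, 119 CPM in Th0, 611 CPM in Th17 and 168 CPM in Treg (3.63-fold, 3.45 to 3.82). Slc2a1 encodes GLUT1 and had 327 and 120.3 CPM (2.72-fold, 2.56 to 2.90). Hk2, the hexokinase that phosphorylates glucose, had 3.21 CPM in Th0, 407 CPM in Th17 and 194 CPM in Treg (2.10-fold, 1.996 to 2.21). Pdk1, the kinase that shuts pyruvate dehydrogenase, was 1.76-fold above Treg (1.65 to 1.87). Slc16a3, the lactate exporter MCT4, was 1.74-fold above it (1.64 to 1.84), and Pgam1, phosphoglycerate mutase, 1.72-fold (1.66 to 1.79). The most abundant steps differed by less: Pkm by 1.52-fold, Pgk1 by 1.55-fold, Aldoa by 1.53-fold and Ldha by 1.39-fold, all with intervals that excluded equality. Hk1, Eno3 and Ldhb, further isoforms of hexokinase, enolase and lactate dehydrogenase, had ratios below 0. The 24 genes of pyruvate entry and the citric acid cycle showed no such lean. None was called, the median log2 ratio was -0.08 and the ratios ran from -0.41 for Mdh1 to 0.33 for Suclg2.

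The windows before the starts of 6 called genes of oxygen and glucose metabolism are shown because the core of the hypoxia response element can be read in each of them. The coordinates on GRCm38.p6, from RefSeq, are chr14:45318523-45318822 (minus) for Ero1l, named Ero1a in RefSeq, chr12:54203825-54204124 (minus) for Egln3, chr11:54100674-54100973 (plus) for P4ha2, chr7:138909457-138909756 (minus) for Bnip3, chr4:119108495-119108794 (plus) for Slc2a1 and chr6:82774405-82774704 (minus) for Hk2. Capitals mark ACGTG or its reverse complement CACGT, the core to which HIF binds.
Ero1l: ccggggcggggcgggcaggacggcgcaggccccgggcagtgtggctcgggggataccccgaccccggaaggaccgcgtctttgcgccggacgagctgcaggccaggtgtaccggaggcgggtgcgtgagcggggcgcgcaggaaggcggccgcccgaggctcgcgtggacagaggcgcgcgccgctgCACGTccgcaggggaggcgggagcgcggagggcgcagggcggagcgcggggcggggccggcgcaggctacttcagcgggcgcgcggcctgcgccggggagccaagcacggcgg
Egln3: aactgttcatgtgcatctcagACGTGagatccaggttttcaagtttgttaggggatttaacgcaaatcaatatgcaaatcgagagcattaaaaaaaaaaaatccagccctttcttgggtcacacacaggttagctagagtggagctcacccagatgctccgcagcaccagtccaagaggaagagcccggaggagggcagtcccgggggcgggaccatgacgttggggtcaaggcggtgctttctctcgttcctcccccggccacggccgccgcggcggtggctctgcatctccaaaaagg
P4ha2: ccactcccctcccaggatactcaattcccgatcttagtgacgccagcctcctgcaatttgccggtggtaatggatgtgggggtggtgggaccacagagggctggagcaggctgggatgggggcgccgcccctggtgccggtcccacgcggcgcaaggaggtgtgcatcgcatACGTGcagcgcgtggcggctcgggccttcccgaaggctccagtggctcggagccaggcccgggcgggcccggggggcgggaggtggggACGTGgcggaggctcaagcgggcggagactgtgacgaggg
Bnip3: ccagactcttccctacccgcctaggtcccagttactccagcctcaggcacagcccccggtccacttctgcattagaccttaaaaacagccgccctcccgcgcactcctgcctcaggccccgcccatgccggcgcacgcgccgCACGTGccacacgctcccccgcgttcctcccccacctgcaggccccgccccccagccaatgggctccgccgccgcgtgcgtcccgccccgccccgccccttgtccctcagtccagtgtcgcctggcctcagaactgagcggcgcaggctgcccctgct
Slc2a1: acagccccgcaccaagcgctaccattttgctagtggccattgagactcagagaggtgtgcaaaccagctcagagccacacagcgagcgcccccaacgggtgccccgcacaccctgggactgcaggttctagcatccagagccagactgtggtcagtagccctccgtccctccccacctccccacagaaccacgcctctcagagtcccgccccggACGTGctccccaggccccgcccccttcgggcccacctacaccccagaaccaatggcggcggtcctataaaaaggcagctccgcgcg
Hk2: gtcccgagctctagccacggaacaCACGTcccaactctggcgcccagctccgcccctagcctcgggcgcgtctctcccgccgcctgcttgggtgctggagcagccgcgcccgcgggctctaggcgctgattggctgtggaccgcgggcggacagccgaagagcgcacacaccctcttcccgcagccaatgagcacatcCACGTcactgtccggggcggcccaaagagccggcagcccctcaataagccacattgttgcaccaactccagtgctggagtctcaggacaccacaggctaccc
The matches began at -63 in Ero1l, -229 in Egln3, -78 and 11 in P4ha2, -36 in Slc2a1, and -226 and -52 in Hk2. In Bnip3 the matches at -108 and -107 overlap, because CACGTG reads the same on both strands. The core was present in 16 of 25 hypoxia genes with a window, in 8 of the 10 called higher and in 8 of the 15 not called. In glycolysis it was present in 14 of 23 genes, in 2 of 2 called higher and 12 of 21 others. The share over all 27025 genes was 21.8%. In the glycolysis list the core was therefore also found in genes whose ratio did not reach 2-fold.

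**Figure D4:**
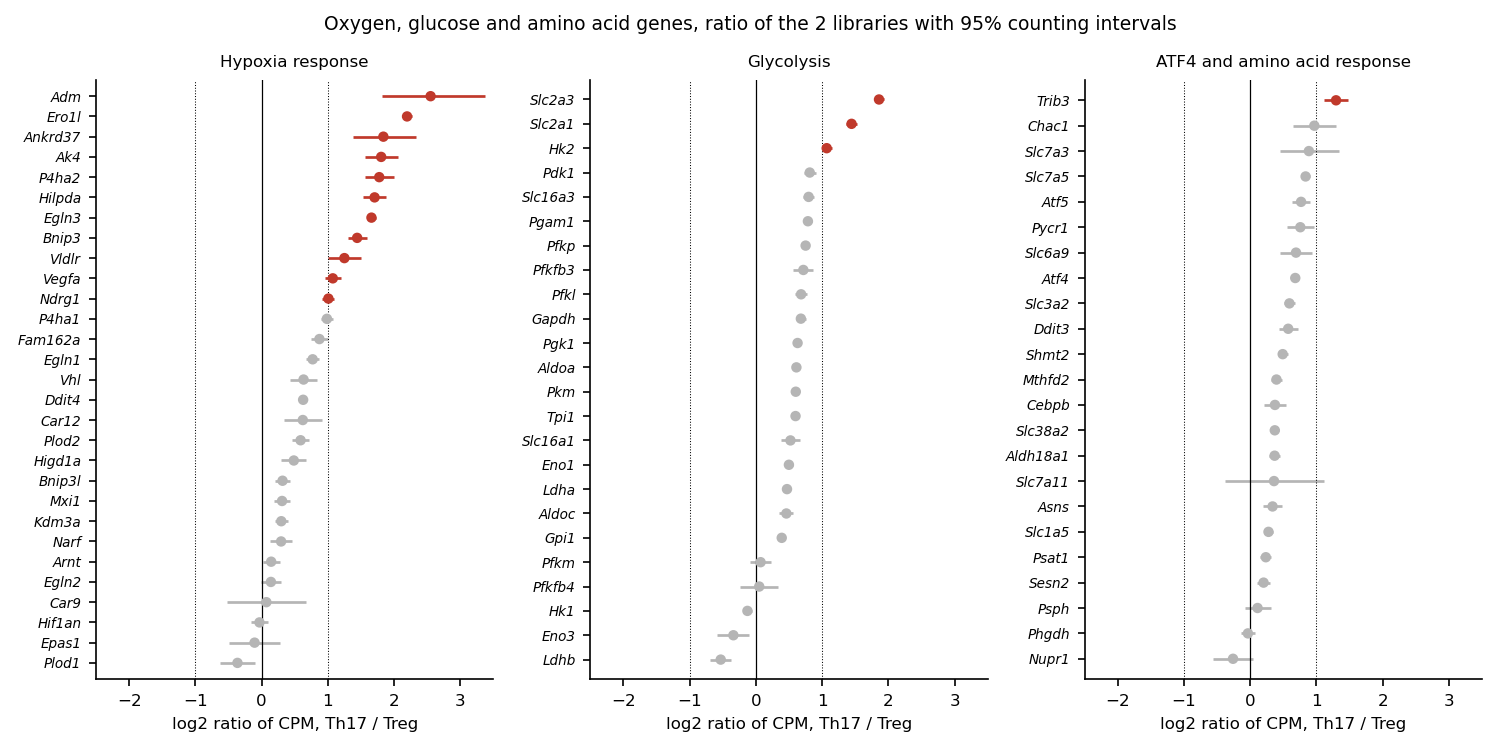
Log2 ratio of CPM, Th17 over Treg, for the tested genes of the hypoxia response (29), glycolysis (24) and the ATF4 and amino acid response (23), without an added count. Bars are 95% counting intervals, dotted lines mark 2-fold and red stands for genes called higher. Most points lie right of 0 in all 3 panels, and 11, 3 and 1 of them are called.

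The ATF4 pathway, which adjusts amino acid uptake and synthesis under stress, had 1 of 23 tested members called higher, beside 1.91% over all genes. Trib3, a pseudokinase induced by ATF4, had 75.98 CPM in Th17 and 30.9 CPM in Treg (2.46-fold, 2.17 to 2.79). The list median was 0.39 and 21 of 23 ratios lay above 0. Slc7a5, the leucine transporter, was 1.79-fold above Treg (1.70 to 1.87), and Atf5 1.70-fold (1.55 to 1.88). The serine synthesis gene Phgdh differed by 1.02-fold (0.952 to 1.10).

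The gene with the largest ratio of all those tested was Scrt1, on chromosome 15 (76516203 to 76522129), which encodes a Snail-related zinc finger repressor known from neurons. It had 2032 counts in Th17 and 3 in Treg, with 11 in Th0 and 3 in naive. The Th17 level was 155 CPM and the Treg level 0.271 CPM, a ratio of 572 with an interval of 196 to 2778. On the log2 scale used for the calls its ratio was 6.94, followed by Gipr at 3.32 and Serpinb5 at 3.30. The nearest genes on either side, Dgat1 and Fbxl6, had log2 ratios of 0.78 and 0.10 and were not called. Gipr, the receptor for the gut hormone GIP, had 0 counts in naive, 1.14 CPM in Th0, 134 CPM in Th17 and 12.5 CPM in Treg (10.7-fold, 8.97 to 12.8). Serpinb5, maspin, was present in Th0 at 41.8 CPM, and had 174 counts in Th17 and 5 in Treg (29.4-fold, 12.4 to 91.7).

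Several more of the 15 highest genes encode secreted or surface proteins. Serpinf1, which encodes pigment epithelium-derived factor, had 44.9 and 8.30 CPM (5.41-fold, 4.34 to 6.82). Selp, the adhesion receptor P-selectin, had 23.5 and 3.88 CPM (6.05-fold, 4.39 to 8.53). Cd93, a C-type lectin-like receptor, had 14.2 CPM in naive, 0.114 CPM in Th0, 24.8 CPM in Th17 and 4.51 CPM in Treg (5.51-fold, 4.08 to 7.58). Ptpn5, a tyrosine phosphatase, had 20.6 and 2.71 CPM (7.61-fold, 5.21 to 11.5). Lilrb4a and Lilr4b are a near-identical, overlapping pair of inhibitory receptor genes on chromosome 10, so the split of reads between them is uncertain. Lilrb4a had 153 and 34.9 CPM (4.39-fold, 3.93 to 4.91), and Lilr4b nearly the same values.

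The gene with the lowest log2 ratio of CPM plus 1 was Ube2l3, on chromosome 16 (17152013 to 17202649), which encodes the ubiquitin-conjugating enzyme UBCH7. It had 9.23 CPM in naive, 53.5 CPM in Th0, 7.77 CPM in Th17 and 69.5 CPM in Treg, 8.94-fold lower in Th17 (7.27 to 11.1). The Th17 and naive libraries were both low and the Th0 and Treg libraries both high. Ube2l3 has 7 near-identical copies or overlapping genes, and reads can be split among them. The sum over all of them had 18.5 CPM in Th17 and 78.0 CPM in Treg, a log2 ratio of -2.02 in place of -3.01, and was still called lower. Trex1, a DNA exonuclease, overlaps Gm42641 on the same strand, which was called higher at 42.3 CPM in Th17 and 20.0 CPM in Treg. The Trex1 value of 4.31-fold lower (3.43 to 5.47) is therefore uncertain in size and in its call. The sum of Trex1 and its neighbour Atrip had a log2 ratio of -1.44 and was also called lower. This sum, 174 counts in Th17 and 417 in Treg, leaves out Gm42641, which had 555 and 222 counts. With the Gm42641 counts added, the difference would not reach 2-fold, so the call depends on how these reads were assigned.

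Atp1b1, a beta subunit of the sodium pump, was among the 15 lowest genes. It had 86.2 CPM in naive, 58.5 CPM in Th0, 20.3 CPM in Th17 and 92.6 CPM in Treg (4.55-fold lower, 3.97 to 5.23). Phc3, a subunit of Polycomb repressive complex 1, had 211, 93.4, 97.7 and 434 CPM in that order and was 4.44-fold lower (4.18 to 4.73). Zfp292, a zinc finger protein, had 227, 81.04, 34.98 and 171 CPM and was 4.89-fold lower (4.41 to 5.42). Ccnd3, the cyclin D3 gene, had 105 CPM in Th17 and 378 CPM in Treg (3.61-fold lower, 3.40 to 3.84), with 162 CPM in naive and 48.5 CPM in Th0. For Phc3 and Ccnd3 the Treg library stood above the 3 others, while for Zfp292 the naive library was highest.

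More of the 15 lowest genes follow. Pla2g4f, a cytosolic phospholipase A2, had 4.34 and 24.6 CPM (5.67-fold lower, 4.25 to 7.68). Gpr146, an orphan receptor, had 30.5 and 123 CPM (4.03-fold lower, 3.60 to 4.52). Tbc1d4, a Rab GTPase-activating protein that controls glucose transporter traffic, had 151 CPM in naive, 10.5 CPM in Th0, 9.45 CPM in Th17 and 37.1 CPM in Treg (3.92-fold lower, 3.20 to 4.83). Fscn1, the actin-bundling protein fascin, was 3.89-fold lower (3.18 to 4.79), and Zbtb42, a zinc finger repressor, 4.13-fold (3.19 to 5.42). Usp49, a deubiquitinase, was 4.49-fold lower (3.48 to 5.85), and Pkhd1l1 5.96-fold (3.98 to 9.21), which was not called with the authors' FPKM.

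The TGF-beta pathway had members on both sides. Of 21 tested genes 2 were called higher, 2 lower and 17 neither, with a median log2 ratio of -0.10. Over all genes 1.91% were called higher and 1.24% lower, which applies to each list of this paragraph. A count of 1 or 2 on lists of this length is no result about a pathway. Among the genes called higher was the ligand gene Tgfb3, with 8.93 CPM in Th0, 145 CPM in Th17 and 70.1 CPM in Treg (2.07-fold, 1.90 to 2.25). The receptor gene Tgfbr2 was lower, with 434 CPM in naive, 143 CPM in Th0, 71.1 CPM in Th17 and 165 CPM in Treg (2.32-fold lower, 2.14 to 2.51). The target Itgae was lower as given above. With 5 CPM added in place of 1, Tgfb3 and Itgae did not reach 2-fold. Of the 15 tested genes of the IL-6 and STAT3 response, Il21 and Batf were higher and none was lower, with a median of 0.41. Of 15 genes of the IL-2 and STAT5 response, Il2 and Socs2 were lower and none was higher, while the median was 0.25. In the retinoic acid pathway 1 of 10 tested genes was lower: Crabp2, a retinoic acid carrier, with 6.86 CPM in Th17 and 22.7 CPM in Treg (3.31-fold lower, 2.59 to 4.26). Of 7 tested genes tied to the aryl hydrocarbon receptor none was called.

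Ratios of cell cycle genes were small and mostly below 0. The median log2 ratio of 30 genes was -0.25, with 2 of 30 ratios above 0 and none called, and the lowest was that of Cdc6, a replication licensing factor, at 16.8 CPM in Th17 and 26.96 CPM in Treg. None of the 24 tested genes of cholesterol synthesis and uptake was called (median -0.05). None of 18 genes of naive and quiescent T cells, 14 of the NF-kappaB pathway or 18 tested costimulatory and checkpoint receptors was called either. In fatty acid synthesis 1 of 19 tested genes was lower, beside 1.24% over all genes. It was Scd1, a fatty acid desaturase, with 138 and 291 CPM (2.10-fold lower, 1.98 to 2.23). Its relative Scd2 was not called, with 1833 and 1789 CPM. The sum of Scd1 and Scd2, which can share reads, had a log2 ratio of -0.08 and was not called. Of 20 immediate early genes 2 were higher in Th17 and 1 was lower, beside 1.91% and 1.24% over all genes. Ier3 had 78.7 and 25.1 CPM (3.14-fold, 2.75 to 3.60) and Egr2 19.7 and 5.14 CPM (3.83-fold, 2.86 to 5.19), and the lower gene was Nr4a3.

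**Figure D5:**
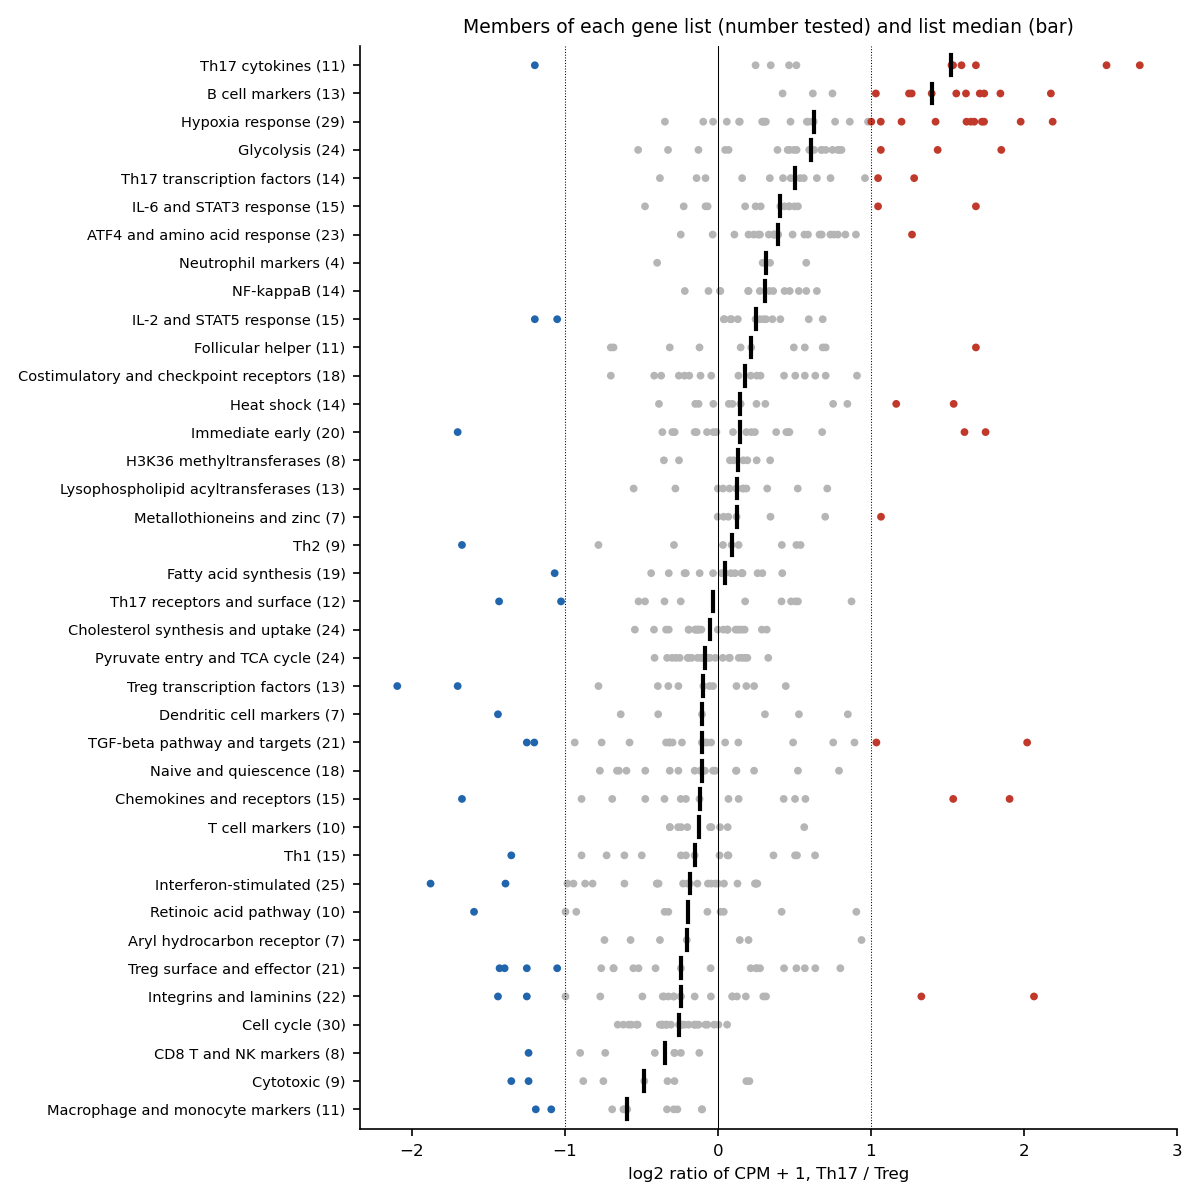
Log2 ratio of CPM plus 1, Th17 over Treg, for the tested members of each gene list (number tested in parentheses), with a bar at the list median. Red and blue points are genes called higher and lower, and dotted lines mark 2-fold. The medians run from 1.53 for the Th17 cytokines to -0.59 for the macrophage and monocyte markers.

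Of 13 tested markers of B cells 10 were higher in Th17, beside 1.91% over all genes, and none was lower. Their median log2 ratio was 1.40, with 0.89 when 5 CPM was added in place of 1 and 0.72 with the authors' FPKM. Pax5, the factor that specifies B cells, had 140.3 CPM in naive, 8.13 CPM in Th0, 19.4 CPM in Th17 and 3.52 CPM in Treg (5.53-fold, 3.93 to 7.95). Ebf1, its partner in early B cells, was 5.12-fold higher (3.13 to 8.80) but was not called with the authors' FPKM, and Cd79a, a chain of the B cell receptor, had 185 counts in Th17 and 40 in Treg (3.91-fold, 2.76 to 5.65). With 5 CPM added in place of 1, 3 of the 10 were called. The sum of the 13 markers was 249 CPM in Th17 and 113 CPM in Treg, against 4066 CPM in naive and 486 CPM in Th0, and none was at 0 in any of these libraries. The highest of them, Ighm, had 141 CPM in Th17 and 83.6 CPM in Treg, a ratio that was not called. The share of B cell transcripts in other genes called higher, such as Cd93, Selp or Lilrb4a, was not tested. Without the genes of all marker lists of other cells, 244 genes were higher and 161 lower, and this count was chosen after seeing the data.

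Markers of other cells were called in few cases, beside 1.91% called higher and 1.24% called lower over all genes. The macrophage and monocyte markers, given above, had a median log2 ratio of -0.59, and of -0.20 with 5 CPM added in place of 1. Of 7 tested dendritic cell markers 1 was lower in Th17, Itgax, with 4.50 and 13.9 CPM (3.09-fold lower, 2.27 to 4.24). The 12 dendritic cell markers summed to 198 CPM in Th17 and 170.1 CPM in Treg. In each library 3 of the 12 were at 0, and 3 of the 7 tested ratios lay above 0. None of 4 tested neutrophil markers was called, with 3 ratios above 0, and the 10 markers of that list summed to 6.40 CPM in Th17 and 5.59 CPM in Treg. Of 8 tested markers of CD8 T and NK cells 1 was lower, the granule gene Nkg7, with 10.9 and 27.1 CPM (2.48-fold lower, 2.03 to 3.05). None of the 8 ratios lay above 0, and the list median was -0.35. These markers summed to 215 CPM in Th17 and 292 CPM in Treg. Ncr1, which marks NK cells, had under 10 counts in both. Of 25 tested interferon-stimulated genes 2 were lower in Th17, Ifit1 with 3 counts against 39 and Ifit3 with 5 against 29, and the list median was -0.18. Neither gene reached 2-fold with 5 CPM added in place of 1. Whether the transcripts of other cells take part in these values was not tested.

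The series concerns the histone methyltransferase Setd2, the enzyme of H3K36 trimethylation, and the phospholipid-remodelling acyltransferase Lpcat4. Setd2, on chromosome 9 (110532597 to 110618633), had 149.6 CPM in Th17 and 133 CPM in Treg, a log2 ratio of 0.17 (interval 0.07 to 0.27). Lpcat4, on chromosome 2 (112239468 to 112247111), had 43.97 and 41.7 CPM, a log2 ratio of 0.08 (-0.10 to 0.26), and its interval included equality. None of 8 H3K36 methyltransferases and none of 13 tested lysophospholipid acyltransferases was called. Among genes with log2 ratios within 0.1, those with the narrowest intervals were Eef1a1, Rpl4, Pabpc1 and Rplp0 of the translation machinery, and Scd2. Eef1a1 had 13924 CPM in Th17 and 13473 CPM in Treg (1.03-fold, 1.03 to 1.04).

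The naive and Th0 levels place the calls, as a description only. By the rule that chose the genes, Treg could not be highest among those called higher, nor Th17 among those called lower. The same orders were not counted over all genes tested. Of the 255 genes called higher in Th17, the Th17 library had the highest level of the 4 libraries in 182, naive in 58 and Th0 in 15. In 156 of the 255 the Treg level lay between those of Th0 and Th17. Of the 165 genes called lower, the Treg library had the highest level in 81, naive in 68 and Th0 in 16, and in 88 the Th17 level lay between those of Th0 and Treg. Il17a and Egln3 are examples of the first kind, with Treg levels above Th0 and below Th17. Foxp3 is an example of a gene called lower whose naive level was the highest.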

How the data were processed

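RNA was sequenced from 4 libraries, 1 per group. The table that the authors deposited holds unnormalized counts, as whole numbers, beside FPKM values, per the file headers. The submitters' processing notes name Bowtie2, RSEM, GRCm38.p6 and mm10; strand, read length and annotation: not given in the sources used here. Overlapping and antisense genes therefore cannot be separated. If the counts came from RSEM estimates, they had been rounded. Total RNA was extracted with TRIzol and sequenced on an Illumina HiSeq platform, per the labels' protocols.

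Counts were scaled with TMM factors (edgeR 4.0.16, R 4.3.3) over genes with at least 10 counts in 1 library (1.06 for Th17, 1.08 for Treg). The log2 ratio used a pseudocount of 1 CPM, which understates the change of low genes. A call needed 2-fold and a 95% exact conditional (Clopper-Pearson) interval of the scaled count ratio that excluded equality. Single levels have exact Poisson intervals. A count of 0 was taken as 3 counts in a fold. PCR reads without molecular identifiers are not independent molecules. Median ratios describe each list, and no list was tested.

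The genes and lists were chosen with earlier results of these data known. Named were the 15 highest and 15 lowest called genes with at least 10 CPM, leaving out predicted genes, receptor segments, pseudogenes and mitochondrial genes. Also named were all tested members of 5 lineage lists, up to 6 members of other lists with the largest ratios, Setd2 and Lpcat4. The last 5 were those with the narrowest intervals among genes with log2 ratios within 0.1. Some genes that this rule names, or that lists count, are not reported here. Further list members and all genes of the closing section were named after their values were seen. A copy was noted when another gene's transcript aligned over at least 300 nt at 95% identity (minimap2 2.31). Of the gene identifiers, 34344 were found in GENCODE vM21. Promoter windows came from RefSeq (GRCm38.p6) and were matched by symbol. Motifs were searched on both strands. Calls were tested on simulated counts. Alternatives covered scaling (DESeq2 1.42.0 and others), pseudocount, filter, unit, depth and call rule. Scripts ran in Python 3.11.15 with scipy 1.17.1, pandas 2.3.3, numpy 2.4.6 and matplotlib 3.10.9.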

Additional observations from a re-analysis of the deposited data

How the results depend on the processing

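The counts of 255 higher and 165 lower genes stayed within 1.5 times with DESeq2 size factors (257 and 159), library totals (248 and 193) and upper quartile scaling (253 and 177). The same held for TMM on the pair alone (262 and 177) and counts thinned to the shallower total (256 and 172). Without the filter the counts were again 255 and 165, which was fixed beforehand. With 1 CPM added, a gene under 10 counts in both libraries cannot reach 2-fold. Settings that weigh low genes moved the counts of calls further. With a pseudocount of 0.5 CPM 362 genes were higher and 286 lower, and with 5 CPM 93 and 61. Among genes with at least 10 CPM 137 were higher and 97 lower, with the authors' FPKM plus 1 there were 112 and 88, and when the whole interval had to lie beyond 2-fold 150 and 105. The share of calls that were higher ran from 55.9% to 61.8%. No named gene that was called changed direction under any of these settings, and the direction of uncalled genes was not checked. A pseudocount cannot change a direction, and the scalings differed too little to reverse a 2-fold ratio. For those settings the outcome was therefore fixed beforehand and is no check. Most of the 274 named genes had no call to lose. Of those that were called, 22 lost their call with 5 CPM added and 11 with FPKM. The latter included Tgfb3, Socs2, Nrp1, Itgae, Tmem176a, Ccr2, Ebf1 and Pkhd1l1. Itga4 was called lower with library totals, upper quartile scaling and 0.5 CPM added. At this depth, genes under about 10 counts cannot be compared. No paired analysis was possible because each group had 1 library and the labels carry no replicate numbers.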

Other observations

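Genes of glycogen metabolism, a list drawn up after values were seen, had 4 of 19 tested members higher in Th17 and none lower, beside 1.91% over all genes (median log2 ratio 0.17). Gbe1, the glycogen branching enzyme, had 14.2 CPM in naive, 4.92 CPM in Th0, 50.98 CPM in Th17 and 19.7 CPM in Treg (2.58-fold, interval 2.21 to 3.02). Ppp1r3b, which targets a phosphatase to glycogen, had 287 CPM in Th17 and 109 CPM in Treg (2.64-fold, 2.47 to 2.81). Its relative Ppp1r3c had 36 and 6 counts, and Epm2a, the glycogen phosphatase laforin, 58 and 10 counts. Gys1, the glycogen synthase of most tissues, was not called at 1.50-fold (1.32 to 1.71).

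In a list of leukotriene and prostaglandin genes, receptors and enzymes together, also drawn up after values were seen, 5 of 18 tested genes were higher and 1 was lower, beside 1.91% and 1.24% over all genes. The median log2 ratio was 0.00 and 9 of 18 ratios lay above 0. The lower gene was the phospholipase gene Pla2g4f (5.67-fold lower, 4.25 to 7.68). Cysltr1 and Cysltr2, the receptors for cysteinyl leukotrienes, had 139.8 and 76.2 CPM in Th17, against 50.3 and 32.1 CPM in Treg (2.78-fold and 2.37-fold). Ltb4r1, the receptor for leukotriene B4, had 32.8 CPM in Th17 and 11.5 CPM in Treg (2.87-fold, 2.35 to 3.52). Alox5 and Ltc4s, which make leukotrienes, had under 10 counts in both libraries.

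Among alpha-arrestins, also a list drawn up after values were seen, 2 of 5 tested genes were lower in Th17, beside 1.24% over all genes. Txnip, which restrains glucose uptake, had 479.9 CPM in naive, 297 CPM in Th0, 122 CPM in Th17 and 339 CPM in Treg (2.78-fold lower, 2.62 to 2.95), and Arrdc4 was 3.69-fold lower (2.60 to 5.33). The abundant noncoding RNA Malat1 had 1415 CPM in Th17 and 648 CPM in Treg (2.18-fold, 2.12 to 2.24). Nfat5, a factor of the osmotic stress response, had 269.9 and 689 CPM (2.55-fold lower, 2.45 to 2.66).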
